A study of Mus musculus with 4 samples.

Results

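MCAF1 was mapped alongside REST, Ring1b and H4K20me3 in mouse embryonic stem cells, and the regions described here carried an MCAF1 call and no call of any other library. They were chosen by read number. Reads with 1 reported location, 1 per position and strand, were moved 75 bp towards their 3′ end, and 1000 bp windows starting at each multiple of 500 bp were scored. An enriched window had a Poisson probability of 1e-09 or less and at least 5 times its background, taken as the genome-wide mean or the mean of the 1 Mb around it if that was higher. Overlapping called windows were joined, and an MCAF1 region was kept if it shared no base with a REST, Ring1b or H4K20me3 region. This left 522 of 2044 MCAF1 regions (25.5%, exact 95% interval 23.7% to 27.5%). The MCAF1 number in each region, and the upper limit on the other 3 libraries, were therefore set by the choice and are given as a description without a test. The label holds for the calls only: most of these regions had more reads of the other libraries than an average window.

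All 4 chromatin immunoprecipitation libraries came from V6.5 cells, a C57BL/6-129 line, with no treatment named. Cells had been taken off their feeder layer for 1 passage (REST) or 2 passages (Ring1b, MCAF1, H4K20me3), the sonicated fragments averaged 500 bp, and ligated DNA went through 18 cycles of amplification. Gel purification kept 150 to 300 bp for MCAF1 as for Ring1b, and up to 350 bp for the remaining pair. Each antibody gave 1 library, and no control library was used here. No difference between antibodies could be checked in a replicate, and intervals are exact 95% intervals that cover counting error only. The libraries hold no expression values, so the cell type could not be checked against marker genes.

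MCAF1, also known as ATF7IP, binds SETDB1, the enzyme that trimethylates lysine 9 of histone H3, and helps keep it stable and in the nucleus. Through SETDB1 it takes part in silencing endogenous retroviruses and other repeated sequences, a pathway studied widely in embryonic stem cells. Ring1b is the catalytic subunit of Polycomb repressive complex 1, REST represses neuronal genes outside neurons, and H4K20me3 marks silent heterochromatin, repeats included.

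The MCAF1 library was the deepest, at 11023569 distinct nuclear reads, followed by H4K20me3 at 7782972, while REST had 3129369 and Ring1b 3083311. Depth set what a call required. An average window needed 5.01 times background in the MCAF1 library and 5.91 times in H4K20me3, but 10.3 times in REST and 10.4 times in Ring1b. A site with equal enrichment of all 4 proteins could thus be called for MCAF1 alone.

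The regions were short and most lay close to the calling limit. By width, 322 covered 1000 bp, 192 covered 1500 bp, 5 covered 2000 bp and 3 covered 2500 bp. In the highest window of each, MCAF1 reads ranged from 24 to 155 with a median of 33, and the fold over background from 5 to 16.8 with a median of 5.51. In 355 regions (68.0%) the fold was 6 or less, in 39 it was 8 or more and in 15 it was 10 or more. Called windows made up 0.0726% of the 4598722 windows that held a read of any library; the choice rests on this same call, so nothing follows from that share. Just inside the limit lay chromosome 12 at 87915001–87916000, where 43 reads were needed and 43 were found. Just outside lay the window on chromosome 11 at 88436001–88437000, with 47 reads where 48 were needed. There were 107 regions with exactly the number needed, and 134 windows outside every region fell 1 read short. All coordinates are on the mm8 assembly; no gene annotation of that build was used, so regions are named by position.

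**Figure D1:**
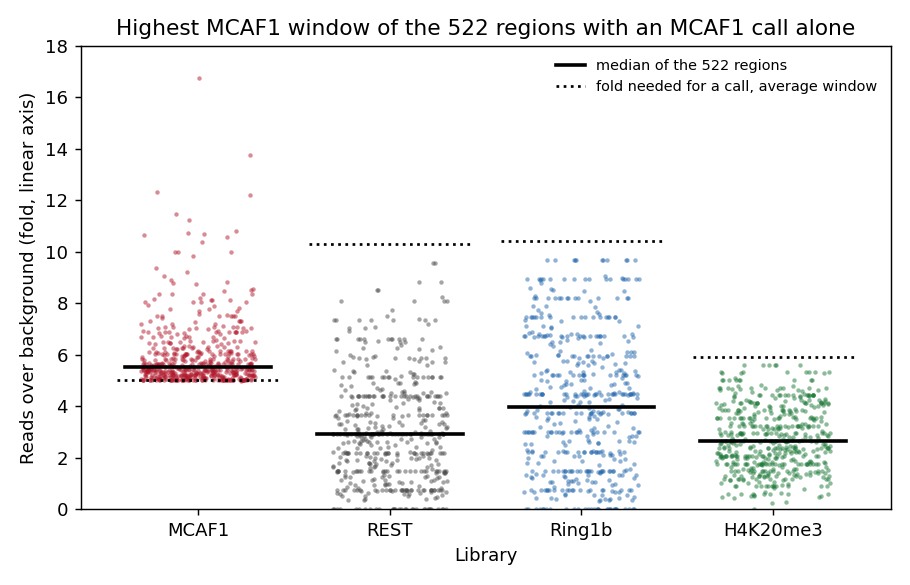
Reads over background (fold, linear axis) in the highest MCAF1 window of the 522 regions, by library; each point is a region, solid lines are medians and dotted lines the calling limit in a window of average background. MCAF1 points crowd just above their limit at a median of 5.51, while REST, Ring1b and H4K20me3 spread from 0 up to their own limits with medians of 2.94, 3.99 and 2.66.

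The sites ranked highest by MCAF1 fold had MCAF1 above the other libraries, a contrast favoured by this ranking and by the limit on the other libraries. The highest lay on chromosome 10 at 127077001–127078500, with 155 MCAF1 reads, 81 on the plus and 74 on the minus strand, against 7 REST, 4 Ring1b and 11 H4K20me3 reads in the same window. MCAF1 was 16.8 times background there (14.2 to 19.6), REST 2.63 times (1.06 to 5.41), Ring1b 1.51 times (0.412 to 3.87) and H4K20me3 1.54 times (0.771 to 2.76). The intervals of the other 3 libraries ended far below that of MCAF1.

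A site on chromosome 5 at 9101501–9103000 had 59 MCAF1 reads, 0 REST reads, 0 Ring1b reads and 4 H4K20me3 reads in its highest window. MCAF1 was 12.3-fold (9.37 to 15.9), and the 0 counts allowed at most 2.71-fold REST and 2.75-fold Ring1b. In the highest window on chromosome 9 at 112626501–112628500, 55 MCAF1 reads (11.5-fold, 8.64 to 14.9) stood beside 0 REST, 1 Ring1b and 12 H4K20me3 reads. REST and Ring1b were at or below background at both sites, and H4K20me3 was 1.18-fold at the first and 3.55-fold at the second.

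The second highest region, on chromosome 5 at 32989001–32991000, was less clear-cut. Its highest window held 85 MCAF1 reads (13.8-fold, 11 to 17) with 3 REST, 8 Ring1b and 13 H4K20me3 reads. Ring1b reached 5.97-fold (2.58 to 11.8) there, which overlaps the MCAF1 interval. The 10 highest regions together spanned 10.6-fold to 16.8-fold MCAF1, and in each the MCAF1 fold was at least 2 times that of any other library. The rest of these 10 lay on chromosome 3 at 139024001–139025500, chromosome 17 at 23890501–23892000 and 86356001–86357500, chromosome 6 at 34851501–34853000, chromosome 18 at 67945001–67946500 and chromosome 2 at 26468501–26470000. Across the highest windows of the 10, REST ranged from 0 to 11 reads, Ring1b from 0 to 13 and H4K20me3 from 4 to 30.

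Most of the 522 regions, by contrast, had moderately more reads of the other libraries than an average window, below the calling limits. Without a control library, enrichment of these proteins could not be told apart from sites rich in reads of any library. REST was at 2 times background or more in 343 regions (65.7%, 61.5% to 69.8%), a level that 10.5% of covered windows reached. Ring1b was at that level in 384 regions (73.6%, 69.6% to 77.3%) against 7.79% of covered windows, and H4K20me3 in 362 (69.3%, 65.2% to 73.3%) against 6.2%. All 3 reached it together in 218 regions (41.8%, 37.5% to 46.1%), against 1.33% of covered windows. These shares were far above the background although the choice had removed every region with a call. Summed over the 522 regions, read density relative to the mean covered window was 3.48 for REST (3.36 to 3.61), 4.67 for Ring1b (4.53 to 4.82) and 3.46 for H4K20me3 (3.38 to 3.54), beside 6.78 for MCAF1 (6.69 to 6.88).

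Ring1b, the ubiquitin ligase of Polycomb, was the highest of the other libraries in 271 regions, H4K20me3 in 152 and REST in 99. Its fold exceeded the MCAF1 fold of the same window in 152 regions (29.1%), REST did so in 58 and H4K20me3 in 7. The choice capped the libraries at different heights, with highest folds of 9.55 for REST, 9.69 for Ring1b and 5.61 for H4K20me3 beside an MCAF1 minimum of 5, so these counts do not rank the proteins. In 124 regions (23.8%) at least 1 other library held 80% or more of the reads its own call required, and in 38 it was 1 read short. Regions of this kind lay on chromosome 2 at 3340501–3342000, chromosome 7 at 64718001–64719500 and chromosome 18 at 90713001–90714500. Each had 13 Ring1b reads in its highest MCAF1 window, where 14 were needed. At the first, Ring1b was 9.69-fold (5.16 to 16.6) and MCAF1 8.04-fold (5.74 to 10.9), and these intervals overlap, so this call for MCAF1 alone does not separate the proteins. There were 11 regions that shared this highest Ring1b fold.

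At the other end, 37 regions (7.09%) had none of the other libraries at 2 times background. That cut is coarse in the shallow libraries. In a window of average background, 2 REST reads gave 1.47-fold and allowed up to 5.31-fold. Likewise 2 Ring1b reads gave 1.49-fold and allowed up to 5.39-fold. The region with the lowest levels lay on chromosome 7 at 82011501–82012500, with 35 MCAF1 reads and 0 REST, 0 Ring1b and 1 H4K20me3 read. MCAF1 was 5.97-fold there (4.16 to 8.30) and the upper limits were 2.48-fold for REST, 2.20-fold for Ring1b and 1.35-fold for H4K20me3. The next was chromosome 3 at 20663501–20665000, with 37 MCAF1 reads (7.72-fold, 5.43 to 10.6) and 0 REST, 0 Ring1b and 3 H4K20me3 reads. MCAF1 was at least 2 times every other library in 109 regions (20.9%) and at least 3 times in 47 (9.0%). The 109 made up 24 of the 39 regions of 8-fold or more and 52 of the 355 regions of 6-fold or less, a split that the definition itself favours because it sets MCAF1 against the rest.

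Among the 522 regions the levels of REST and Ring1b followed each other, with a Spearman correlation of 0.57, whereas REST and H4K20me3 gave 0.16 and Ring1b and H4K20me3 0.12. MCAF1 folds followed none of them: rho was −0.05 with REST, −0.14 with Ring1b and 0.06 with H4K20me3. These values are a description over 522 regions of the same 4 libraries. REST and Ring1b were also the shallow libraries and those aligned with the shorter seed, and with a median of 4 and 7 reads per window their folds are coarse. The choice cut off the range of all 4 libraries.

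Outside the regions of the other libraries, REST and Ring1b were higher in windows with more MCAF1 up to the calling limit but not beyond it. H4K20me3 was highest at 6 to 8 times MCAF1 background and lower above that. In the 137312 windows at 2 to 3 times MCAF1 background, the other libraries lay between 1.62 and 1.63 times theirs. In the 2087 windows at 4 to 5 times, just under the limit, REST was at 2.93 (2.87 to 2.98), Ring1b at 3.65 (3.59 to 3.72) and H4K20me3 at 2.52 (2.48 to 2.55). The 500 windows at 5 to 6 times gave 3.01, 3.65 and 2.64, and the 201 at 6 to 8 times 2.81, 3.45 and 2.88 (2.77 to 3.0 for H4K20me3). The 61 windows at 8 times or more gave 2.49 for REST (2.20 to 2.81), 3.04 for Ring1b (2.72 to 3.38) and 2.46 for H4K20me3 (2.28 to 2.65). Weak MCAF1 calls thus had moderate levels of the other libraries, close to those of windows that narrowly missed a call. The strongest class had less REST and Ring1b than the class at 5 to 6 times and less H4K20me3 than the class at 6 to 8 times. Windows starting 500 bp apart overlap, so neighbouring windows of a site share reads. The intervals are therefore too narrow and do not settle these differences. Windows with a higher level of the other libraries had been removed by the choice, which bounds these curves from above.

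**Figure D2:**
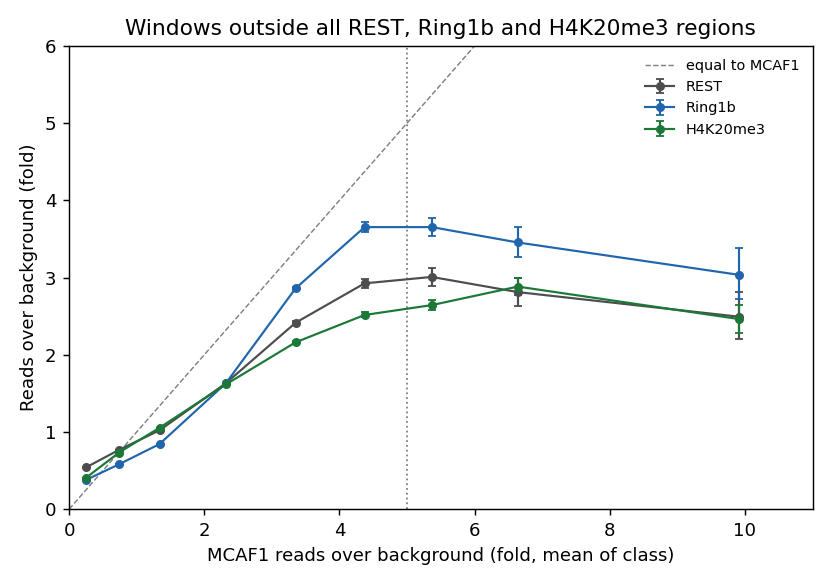
Mean fold over background of REST, Ring1b and H4K20me3 against that of MCAF1, in covered windows outside all regions of those 3 libraries, grouped by MCAF1 fold; bars are 95% Poisson intervals that leave out the overlap of neighbouring windows, the dotted line is the 5-fold limit and the dashed line marks equality. The curves rise to 3.65 for Ring1b at 4 to 5 times MCAF1 background and lie at 3.04 in the highest class.

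When the pooled reads of the other 3 libraries, scaled to MCAF1 depth, also served as a lower bound of the MCAF1 background, 41 MCAF1 regions were called and 39 of them overlapped no other region. These covered 38 of the 522, among them 7 of the 10 highest. The density of the other libraries in the 39 was 0.985 times the genome mean for REST (0.754 to 1.27), 0.852 times for Ring1b (0.637 to 1.12) and 1.79 times for H4K20me3 (1.58 to 2.01), levels that this setting selects for. With the other libraries called at a probability of 1e-04 and 3 times background, 162 regions remained without another call. After every library was thinned to 3083311 reads, 368 MCAF1 regions were called. Of these, 92 (25%) had no other call, and 60 of the 522 overlapped them. With the local background taken over 100 kb, 330 of 1321 MCAF1 regions (25%) had no other call.

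Reads that played no part in the choice gave a separate measure. Regions were called from the reads of 1 strand, at a probability of 3.16e-05, and filtered by the calls of the other libraries on that strand. Read density was then counted on the opposite strand. The 870 regions called on the plus strand held MCAF1 at 6.49 times the genome mean on that strand and at 4.61 times on the minus strand (4.53 to 4.70). Ring1b on the minus strand was also at 4.61 times (4.45 to 4.77), REST at 3.27 times (3.13 to 3.40) and H4K20me3 at 3.21 times (3.13 to 3.30). The 960 regions called on the minus strand gave 4.66 times for MCAF1 (4.58 to 4.74), 4.6 for Ring1b (4.45 to 4.75), 3.22 for REST and 3.27 for H4K20me3 on the plus strand. Ring1b on the calling strands was lower, at 3.72 and 3.82 times, where windows rich in it had been filtered out. The 870 and 960 regions overlapped only 281 and 331 of the regions that had no other call in the full reads. The filter used calls on 1 strand only, so a region with a Ring1b call in the full reads could remain. How many did was not tested. In reads not used for the choice, the average of these regions called on 1 strand was as rich in Ring1b as in MCAF1. Each level is relative to its own library's mean.

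The strongly enriched sites behaved differently. In the 35 plus-strand regions with MCAF1 at 8-fold or more, the minus strand held MCAF1 at 7.95 times (7.47 to 8.45), Ring1b at 3.85 times (3.23 to 4.54), REST at 2.80 times (2.29 to 3.40) and H4K20me3 at 2.90 times (2.56 to 3.28). The 49 such regions on the minus strand gave 8.04, 3.77, 3.03 and 3.88 times. Where MCAF1 on the calling strand was at least 2 times every other library, the opposite strand kept the order: 4.65 times for MCAF1 (4.48 to 4.82), 2.31 for Ring1b (2.09 to 2.54), 2.02 for REST (1.82 to 2.24) and 2.66 for H4K20me3 (2.51 to 2.81) in 222 plus-strand regions, and 4.94, 2.48, 1.83 and 2.79 in 225 minus-strand regions. In both directions MCAF1 lay above the intervals of the other libraries. Amplified fragments can be read from either end, so the strands are not wholly separate samples of molecules, and only 281 and 331 of the 522 regions overlapped the plus-strand and minus-strand sets.

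**Figure D3:**
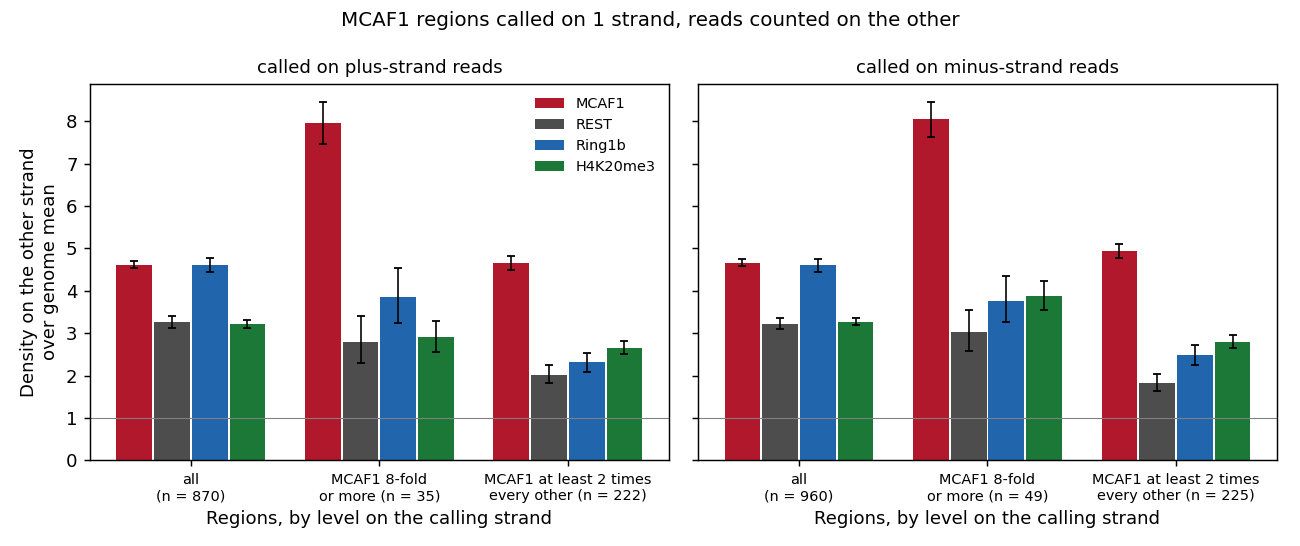
Read density over the genome mean on the strand that was not used for calling, in MCAF1 regions without another call on the calling strand; bars are libraries with 95% Poisson intervals. MCAF1 and Ring1b are level over all regions (4.61 and 4.61 on the left), and MCAF1 stands above the rest where its calling-strand fold was 8 or more (7.95 on the left, 8.04 on the right).

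Reads with 2 reported locations, which come from sequence present in 2 near-identical copies, were also kept out of the choice. Such a read was counted at each of its reported locations, so one counted in a region may come from the other copy. MCAF1 had 1185 such reads in the 522 regions, 5.90 times the genome mean for this kind of read (5.57 to 6.25), against 2.55 times for REST (2.28 to 2.85), 3.55 for Ring1b (3.19 to 3.94) and 2.80 for H4K20me3 (2.54 to 3.08). The 10 regions with the most held 33.5% of the MCAF1 reads of this kind. By presence, 188 regions (36%, 31.9% to 40.3%) held at least 1, where 14.3% of the 1000 bp covered windows did, which are narrower than some of the regions. The other libraries had a similar excess: REST had such a read in 35.4% of the regions and 14.2% of windows, Ring1b in 36% and 11.4%, and H4K20me3 in 27.2% and 10.7%. More reads of this kind were therefore not particular to MCAF1. MCAF1 regions with a Ring1b call only held one in 54 of 414 cases (13.0%, 9.95% to 16.7%), and those with an H4K20me3 call only in 116 of 288 (40.3%, 34.6% to 46.2%). The density of MCAF1 2-location reads was 1.73 times (1.54 to 1.95) in the former and 18.4 times (17.7 to 19.2) in the latter, with the regions with MCAF1 alone in between. The pooled densities rest on few regions, since 10 regions held 75.4% of these reads in the Ring1b class and 50.9% in the H4K20me3 class.

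The 2-location reads were not spread evenly over the 522 regions. Of the 109 regions in which MCAF1 was at least 2 times every other library, 69 held a 2-location MCAF1 read (63.3%, 53.5% to 72.3%), and of the remaining 413 regions 119 did (28.8%, 24.5% to 33.4%). Pooled density was 12.3 times the genome mean (11.3 to 13.3) in the first set and 4.0 times (3.69 to 4.33) in the second. The other libraries differed less: REST was at 2.25 and 2.64 times, Ring1b at 1.97 and 4.02 times and H4K20me3 at 3.16 and 2.69 times. Grouped by how many other libraries reached 2 times background, the share of regions with a 2-location MCAF1 read was 56.8% with 0 libraries (39.5% to 72.9%), 58.6% with 1 (48.2% to 68.4%), 28.0% with 2 (21.3% to 35.4%) and 28.4% with 3 (22.6% to 34.9%). The 38 regions that stayed when the other libraries served as background held such a read in 26 cases (68.4%), and their pooled MCAF1 density in these reads was 19.8 times (17.7 to 22.0). REST and Ring1b were aligned with a seed of 26 bases and MCAF1 and H4K20me3 with 36, per the file headers. The groups rest on 1-location folds of these same libraries. The part of the seed length in the 2-location values, and in the 1-location folds that formed the groups, was not tested.

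**Figure D4:**
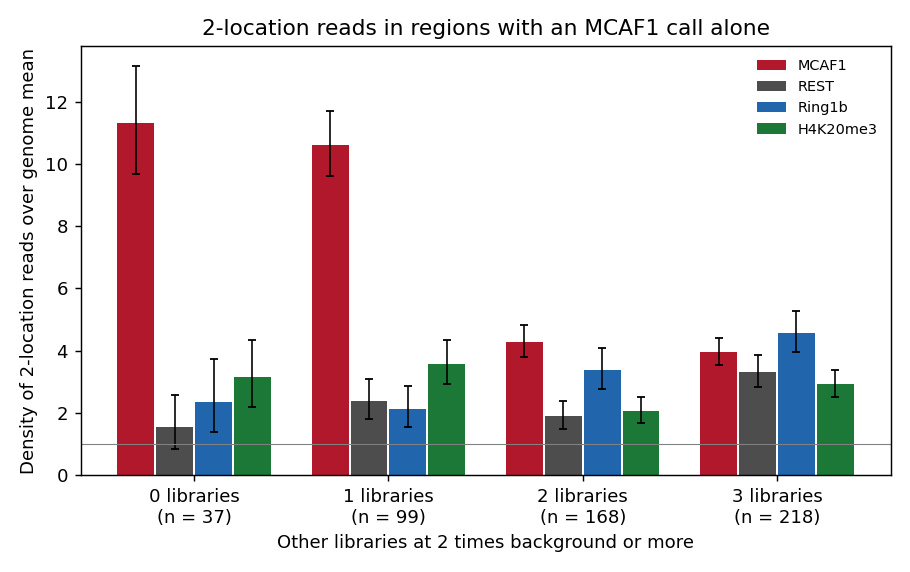
Density of reads with 2 reported locations, counted at each location, over the genome mean for such reads, in the 522 regions grouped by the number of other libraries at 2 times background or more; bars are libraries with 95% Poisson intervals. MCAF1 stands at 11.3 and 10.6 times with 0 and 1 other library and at 4.29 and 3.95 times with 2 and 3.

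The individual regions with the most 2-location MCAF1 reads for their width lay on chromosome 3 at 144657501–144658500, chromosome 2 at 26468501–26470000 and chromosome 10 at 127077001–127078500. The first held 57 such MCAF1 reads beside 4 REST, 5 Ring1b and 0 H4K20me3 reads of this kind, and its 1-location MCAF1 fold was 6.35 (4.35 to 8.97). The second held 51 beside 2, 2 and 11. The third, the strongest of the 522 by 1-location reads, held 48 beside 0, 0 and 0. Any of these 2-location reads may come from the other copy of the sequence. Of the 10 strongest regions 8 held at least 1. In the 36 regions with 10 or more, 1-location density was 8.28 times the genome mean for MCAF1 (7.92 to 8.65) and 2.65 times for Ring1b (2.28 to 3.07), and in the 334 regions without any it was 6.56 times (6.44 to 6.67) and 5.36 times (5.16 to 5.56). REST was at 2.79 times (2.41 to 3.22) in the 36 and 3.82 times (3.65 to 3.99) in the 334, and H4K20me3 at 3.55 and 3.39 times. MCAF1 was thus higher and both Ring1b and REST lower where 2-location reads were present in number. Ring1b and REST were the libraries aligned with the shorter seed, and the part of seed length in these 1-location densities was not tested. In those 36 regions the 2-location reads of the other libraries were also far above their means, at 9.27 times for REST (7.45 to 11.4), 11.3 times for Ring1b (9.13 to 13.9) and 15.6 times for H4K20me3 (13.4 to 18.0), beside 47.1 times for MCAF1, which chose them.

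MCAF1 reads formed a narrow peak at these sites, a shape set in part by the choice. The profile was centred on the window with the highest MCAF1 fold, and a region ended where called windows ended. Within 100 bp of the centre of the highest window MCAF1 density was 10.2 times the genome mean (9.87 to 10.4), and it was 2.02 times (1.97 to 2.08) between 500 and 1000 bp. Between 3 and 5 kb away, outside the regions, it was 1.65 times (1.62 to 1.68), and REST, Ring1b and H4K20me3 were at 1.52, 1.77 and 1.76 times. The other libraries peaked at the same place, REST at 4.57 times (4.23 to 4.94), Ring1b at 6.48 times (6.06 to 6.91) and H4K20me3 at 3.70 times (3.50 to 3.91) within 100 bp of the centre. Away from the centre H4K20me3 was 2.29 times (2.22 to 2.36) at 500 to 1000 bp and 2.02 times (1.97 to 2.07) at 1000 to 2000 bp, both above its level at 3 to 5 kb. Around the 414 MCAF1 regions with a Ring1b call only it was 2.81 and 1.97 times at these distances, so this was not particular to MCAF1 alone. H4K20me3 was higher throughout, at 10.9 times in the centre and 4.56 times (4.47 to 4.66) at 1000 to 2000 bp, around the 288 MCAF1 regions that shared an H4K20me3 call only. That contrast follows in part from the choice, which used the H4K20me3 calls.

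**Figure D5:**
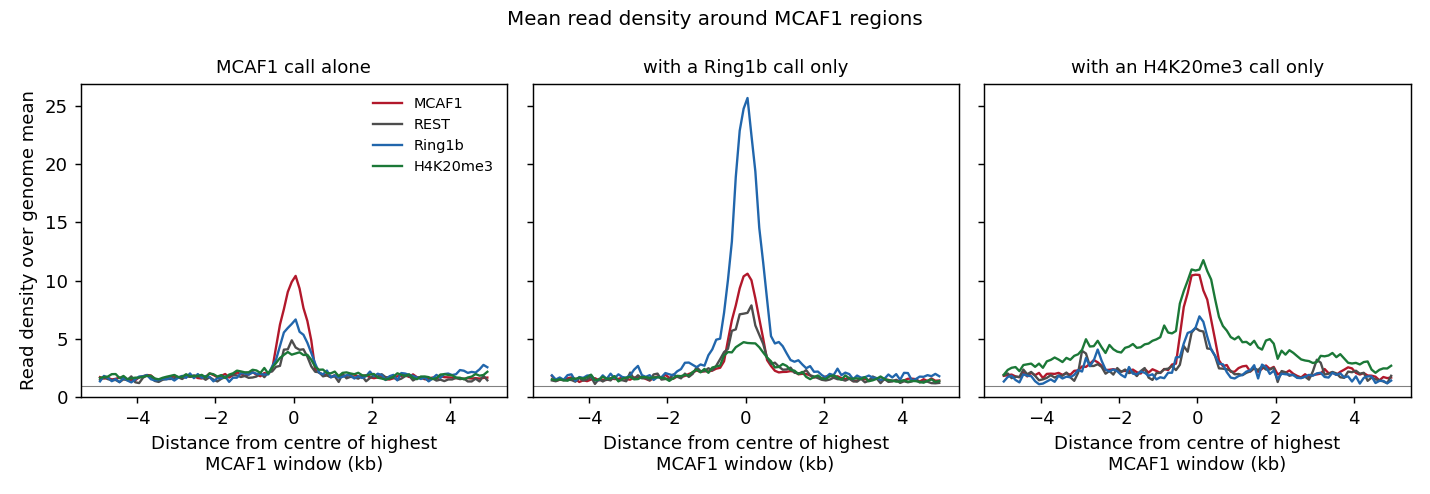
Mean read density over the genome mean in steps of 100 bp within 5 kb of the centre of the highest MCAF1 window, for the 522 regions with an MCAF1 call alone, the 414 with a Ring1b call only and the 288 with an H4K20me3 call only; lines are libraries. The left panel shows a narrow MCAF1 peak with smaller peaks of the other 3 libraries at the same place, and the right panel a wide H4K20me3 shoulder.

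Both strands contributed about equally to the peaks. Plus-strand reads made up 49.8% of MCAF1 reads in the highest windows (49.1% to 50.5%), and in 512 of 522 regions the share lay between 30% and 70%. Pairs of a plus-strand and a minus-strand read were most frequent 90 to 100 bp apart, 2.64 times as often as at 300 to 600 bp (2.56 to 2.72). At the same spacing the ratio was 2.16 in the regions with a Ring1b call only and 1.99 in those with an H4K20me3 call only, where pairs were most frequent at 0 to 10 bp, with a ratio of 2.41. The sources used here do not say which end of a minus-strand read its position gives, so the spacing is not a fragment length and the 75 bp move may be off by a read length on that strand. Repeated positions, which the choice dropped, made up 15.3% of MCAF1 reads in the regions (14.8% to 15.8%) and 12.2% in the whole nuclear library. In the 109 regions with MCAF1 at least 2 times every other library they made up 17.1% (16.1% to 18.0%), and in the remaining 413 they made up 14.7% (14.2% to 15.2%). The part of amplification in the enrichment was not tested; with repeated positions kept in the counts, 560 regions were found without another call.

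Along the genome the regions were scattered. There were 0.227 per Mb of covered sequence (0.208 to 0.247), from 0.148 on chromosome 5 (0.0907 to 0.229) up to 0.392 on chromosome 18 (0.268 to 0.553) and 0.440 on chromosome 19 (0.282 to 0.654) among the autosomes. The X chromosome held 4, or 0.0351 per Mb (0.00955 to 0.0898). MCAF1 read density on the X chromosome was 0.370 times the genome mean, and the background was never set below that mean, so calls were harder there. The share of MCAF1 regions that had no other call ranged among the autosomes from 18.8% on chromosome 11 to 38.1% on chromosome 19. In 352 of the 522 regions the surrounding 1 Mb was richer in MCAF1 reads than the genome, with a median of 1.14 times over all.

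They nevertheless lay nearer to other calls than uncalled windows did. Within 10 kb of an H4K20me3 region were 111 (21.3%, 17.8% to 25%), against 6.96% of uncalled windows. For Ring1b the shares were 20.3% (16.9% to 24%) and 8.16%, and for REST 5.17% (3.44% to 7.44%) and 2.20%. This nearness was not particular to regions with MCAF1 alone. An H4K20me3 region lay within 10 kb of 22.0% of MCAF1 regions with a Ring1b call only. A Ring1b region lay within 10 kb of 23.3% of those with an H4K20me3 call only. In the Ring1b class and the H4K20me3 class, a REST region lay within 10 kb of 4.83% and 11.1%. Another MCAF1 region lay within 10 kb of 11.1% of the 522 (8.55% to 14.1%), against 1.60% of uncalled windows. In the same classes the shares were 8.21% and 19.4%. In 30 of the 522 the edge touched a region of another library, and 93 (17.8%) lay more than 100 kb from any. Median folds of REST, Ring1b and H4K20me3 were 2.78, 4.08 and 2.61 in the 168 regions within 10 kb of another call and 2.94, 4.43 and 2.73 in those 93, so the moderate levels were also present far from the regions of other libraries.

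The regions were mostly alone: 447 had no other of the 522 within 100 kb and 67 had 1. The densest group lay on chromosome 17, where 3 regions at 6376001–6377500, 6389501–6392000 and 6403501–6405500 each had 3 neighbours within 100 kb. Their highest windows held 60, 60 and 64 MCAF1 reads, 8, 12 and 15 REST reads, 7, 11 and 12 Ring1b reads and 36, 37 and 31 H4K20me3 reads. MCAF1 was 6.65-fold to 7.13-fold there and H4K20me3 3.55-fold to 4.22-fold, and a region of another library began or ended no more than 1000 bp from each. The region of 2500 bp on chromosome 11 at 3086001–3088500 touched other calls too. Its highest window held 155 MCAF1, 21 REST, 26 Ring1b and 89 H4K20me3 reads, and the surrounding 1 Mb had 5.35 times the genome's MCAF1 density. The third of the widest lay on chromosome 12 at 12202001–12204500. Its highest window held 31 MCAF1 reads (6.47-fold, 4.39 to 9.18) and 5 REST, 9 Ring1b and 6 H4K20me3 reads.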

How the data were processed

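Per the file headers, reads were aligned by the authors with Bowtie to mm8, up to 2 locations were reported per read and reads with more were dropped, with 2 seed mismatches, a mismatch quality sum of 70 and a seed of 26 bases (REST, Ring1b) or 36 bases (MCAF1, H4K20me3); which Bowtie version, the sources used here do not give. The authors deposited signed positions, 1 per reported alignment, not counts per feature; they were read as counting from 0 and are printed from 1. Mitochondrial reads were left out. Windows, backgrounds, calls, exact Poisson and Clopper-Pearson intervals were computed with scipy 1.17.1 and numpy 2.4.6 under Python 3.11.15 and drawn with matplotlib 3.10.9, and the calling step was tested on simulated data. Fold is over the window's background and density over the library's mean covered window. The members, lists and groupings were chosen with earlier results of these data known. Regions named were the 10 highest, the 3 widest, 3 each with the highest and the lowest levels of the other libraries, most 2-location reads or most neighbours, and those next to the limit. The 10 alternatives changed 1 choice each, except that the looser calls of the other libraries changed their probability and fold limits together. No mm8 sequence or gene annotation was used.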

Additional observations from a re-analysis of the deposited data

How the results depend on the processing

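The number of regions with an MCAF1 call alone, 522 as reported, stayed within 1.5 times under 6 of 10 alternatives (354 to 567). It was 330 with a 100 kb local background, 162 with the other libraries called at 1e-04 and 3 times background, 92 after thinning to equal depth and 39 with the pooled other libraries as MCAF1 background. As a share of the MCAF1 regions called in each setting, these were 25%, 7.93%, 25% and 95.1%, beside 25.5% as reported. Under the 6 the share ran from 17.3%, with no other call within 10 kb, to 31.9%, at a limit of 1e-12. The looser calls changed 2 limits at once, whose separate parts were not tested. A probability limit of 1e-06 gave 365, with MCAF1 again at 2044 regions and more of them overlapping another call. A limit of 1e-12 gave 497. The regions of these 2 settings overlapped 365 and 348 of the 522, so a similar count did not mean the same regions. The smallest overlap among the 6 was 348 and the largest 459.

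The densities of the other libraries, reported as 3.48 (REST), 4.67 (Ring1b) and 3.46 (H4K20me3), were 2.93, 3.59 and 3.28 at 1e-06 and 4.21, 5.75 and 4.10 at 1e-12. They were 3.30, 4.45 and 3.64 with the 100 kb background and 3.35, 4.47 and 3.24 with no other call within 10 kb. With the looser calls they were 2.05, 2.53 and 2.27, and with the pooled background 0.985, 0.852 and 1.79; these last 2 settings remove enriched regions by construction. With 2-location reads added REST was 3.04 and Ring1b 4.01, after thinning Ring1b was 4.12 and H4K20me3 5.0, and with repeated positions kept Ring1b was 4.36. A shift of 40 bp moved none of the 3 beyond its interval. MCAF1 density in 2-location reads, 5.90 as reported, ranged from 5.71 to 22.7 over 9 alternatives; where 2-location reads entered the calls it was not recomputed. No paired analysis was possible because each antibody had 1 library. Depth limits most what can be said of REST and Ring1b, where a count of 0 in a window of average background still allowed 2.71-fold and 2.75-fold.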
